A study of Mus musculus with 6 samples.

Results

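The genes described here are 9 genes of retinoic acid signalling, chosen by name: *Stra6*, which codes for a retinol transporter, the cellular retinoic acid-binding protein genes *Crabp1* and *Crabp2*, the retinoic acid receptor genes *Rara*, *Rarb* and *Rarg*, the retinoid X receptor gene *Rxra*, and the retinoic acid hydroxylase genes *Cyp26a1* and *Cyp26b1*. All 9 were found by symbol among the 16279 genes listed in either of 2 bulk RNA-seq count tables. One table holds mouse embryonic stem cells (mESCs) and the other cardiac precursor cell cultures (CPCCs), with 3 libraries each, labelled S01 to S03 and S04 to S06. Both cell types are male and carry 1 C57BL/6 and 1 CAST/EiJ genome. The mESCs were 3 clones, each from its own blastocyst, kept in 2i medium (inhibitors of MEK and of GSK3) with leukemia inhibitory factor and serum. The CPCCs were made from those clones through embryoid bodies in medium with ascorbic acid, and were then passaged in medium with EGF and Fgf2. They are a mixed culture and not a sorted cell type. Serum was present at each stage, and no retinoid is named among the supplements.

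Retinoic acid is made from vitamin A inside cells. Retinol is brought in by STRA6, oxidised to retinal and then to retinoic acid, carried in the cytosol by the CRABP proteins, and removed by the CYP26 hydroxylases. In the nucleus it binds RAR proteins, which sit on DNA with RXR proteins as partners. In the embryo this signal patterns the trunk, the hindbrain and the inflow end of the forming heart, and in culture it drives embryonic stem cells out of self-renewal.

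RAR and RXR pairs bind direct repeats of a hexamer, and the repeat with 5 bases between the hexamers (DR5) is the classical retinoic acid response element. *Rarb* and *Cyp26a1* are textbook direct targets of the receptors, so their promoters are shown. The RefSeq promoter windows of build GRCm38.p6 reach from 250 bases before to 50 bases after a gene's start, and 8 of the 9 genes matched at least 1 window, 16 in all. *Crabp2* had no window. The hexamers searched on both strands were AGGTCA or AGTTCA, and as further forms GGGTCA or GGTTCA. A DR5 of these hexamers occurred in 2 of the 8 genes with a window, *Rarb* and *Cyp26a1*. Over all 27025 genes with a window it occurred in 31 (0.115%), or in 32 of 32851 windows (0.0974%). The 2 genes were known targets beforehand, so these shares give the rarity of the match and do not test for enrichment. No window of the 9 genes held a repeat with a spacing of 1 or 2 bases, which occurred in 0.222% and 0.268% of all windows. The capitals below mark the DR5. The *Rarb* window is chr14:16575427-16575726 on the minus strand, around a start that lies inside the gene as the tables bound it. Its repeat, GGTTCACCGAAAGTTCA, runs along the gene's own strand from 53 to 37 bases before that start. The *Cyp26a1* window is chr19:37697558-37697857 on the plus strand. Its repeat reads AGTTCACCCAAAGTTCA on the other strand and lies 32 to 16 bases before the start. Both sequences are given 5′ to 3′ along the gene.
Rarb: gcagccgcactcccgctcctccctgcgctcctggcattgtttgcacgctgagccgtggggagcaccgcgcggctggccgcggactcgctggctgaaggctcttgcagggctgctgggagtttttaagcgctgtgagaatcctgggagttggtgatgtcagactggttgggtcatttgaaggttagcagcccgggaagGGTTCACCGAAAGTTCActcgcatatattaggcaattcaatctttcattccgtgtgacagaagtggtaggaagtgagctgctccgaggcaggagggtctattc
Cyp26a1: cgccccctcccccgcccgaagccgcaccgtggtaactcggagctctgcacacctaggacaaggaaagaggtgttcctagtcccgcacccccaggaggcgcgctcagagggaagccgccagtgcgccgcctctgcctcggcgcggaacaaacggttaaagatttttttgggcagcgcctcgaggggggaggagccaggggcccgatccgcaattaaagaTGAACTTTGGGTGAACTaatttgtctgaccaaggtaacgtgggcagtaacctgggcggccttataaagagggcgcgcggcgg
These letter matches describe the windows and are not measured binding sites.

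The libraries held 6442639 to 6907330 counts in mESCs and 8468819 to 11436062 in CPCCs, with S04 the deepest. Levels below are counts scaled to a library total of 1000000 (CPM), and 3 counts correspond to 0.434 to 0.466 CPM in mESCs and to 0.262 to 0.354 CPM in CPCCs. Among 8 pluripotency markers all 8 were lower in CPCCs, and their summed level ran from 5250 to 5595 CPM in mESCs and from 107.5 to 295 CPM in CPCCs. The sum of 8 mesenchymal markers was 10.9 to 15.2 CPM in mESCs and 12060 to 16970 CPM in CPCCs. For 8 neural markers it was 40.8 to 46.4 and 498.4 to 592.7 CPM, with *Neurog2* in neither table. For 8 cardiac progenitor markers it was 3.97 to 4.63 and 38.3 to 118.6 CPM, with *Tbx5* listed only for mESCs and *Hcn4* in neither table. Only 3 of these 8 were tested, of which 1 was higher in CPCCs and 2 did not pass the test. The sum of 6 epicardial markers was 8.07 to 9.56 and 26.2 to 57.6 CPM, with *Tcf21* and *Upk3b* in neither table. Of these markers 2 were tested and 1 was higher in CPCCs. This list includes *Aldh1a2*, a gene of the retinoid pathway, which alone had 6.21 to 8.40 CPM in mESCs. For 8 endoderm markers the ranges overlapped, at 78.2 to 126 CPM in mESCs and 74.7 to 151.9 CPM in CPCCs. Among the CPCC libraries, S04 had the highest cardiac progenitor and epicardial sums and the lowest neural and pluripotency sums. Of the endoderm genes 3 were tested and 2 of them were higher in CPCCs. Except for endoderm, the marker sums differed between the same groups as the retinoid genes described next. The part of the markers in those results was not tested. In bulk RNA, fewer cells of a type and less RNA per cell cannot be told apart.

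The comparison of CPCCs with mESCs asked how the components of the pathway differed between the stem cells and the cultures derived from them. *Rarb* and *Crabp2* stood far higher in CPCCs, at 49.9 and 42.7 times their mESC level, *Rarg*, *Rara* and *Rxra* were higher by smaller amounts, *Crabp1* did not pass the test, and *Cyp26a1*, *Cyp26b1* and *Stra6* were listed only for CPCCs. Of the 9 genes, 6 were in both tables and could be tested, and all 6 passed the filter on low counts. Of these 6, 5 were higher in CPCCs at an adjusted p under 0.05, none was lower and 1 did not pass, by the quasi-likelihood test of edgeR, with p-values adjusted by the Benjamini-Hochberg method over all 12471 genes tested. The count of lower genes was also 0 at an unadjusted p under 0.05 and by DESeq2. *Rarb*, *Rarg* and *Crabp2* had few mESC counts and passed the filter through their CPCC libraries, so they had little room to be lower. With at least 10 counts required in every library, 3 of the 9 genes were tested and 2 were higher. Over all genes tested, 31.7% were higher in CPCCs, 29.7% were lower and 61.4% differed in either direction. The median log2 fold change was 1.92 over the 6 genes and 0.03 over all genes tested. In 5 of the 6, every CPCC library lay above every mESC library, which held for 33.8% of all genes tested. No gene of the 6 had every CPCC library below every mESC library, which held for 35.5%. Both cell types came from the same 3 clones. The p-values rest on the spread between 3 libraries within each cell type, in which clone, culture and library preparation cannot be told apart.

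**Figure D1:**
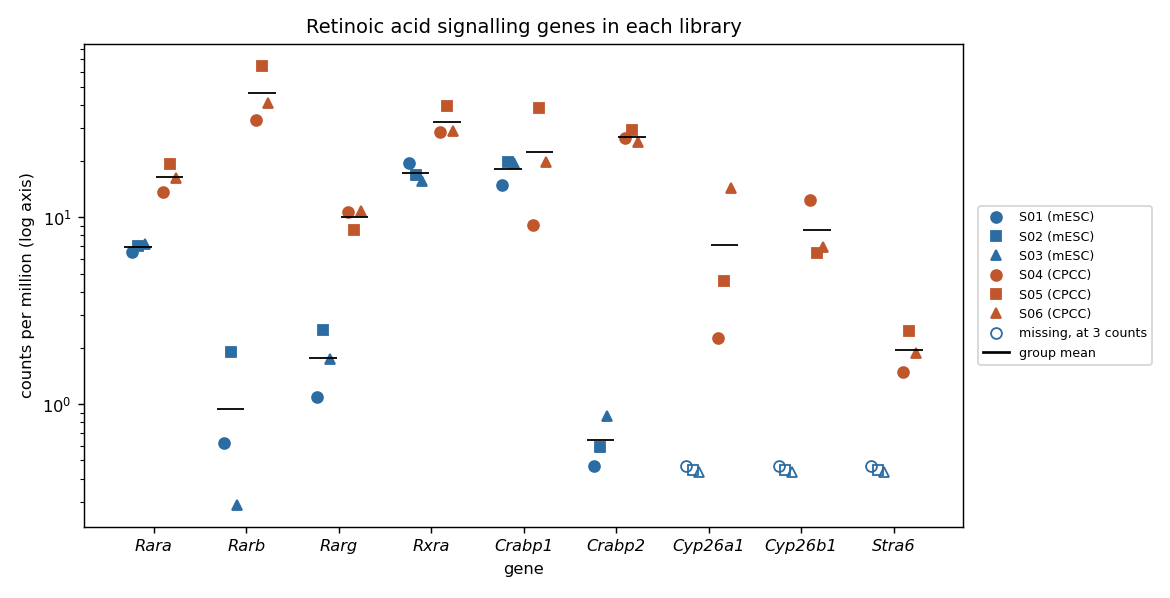
Level of each gene in CPM (log axis) in the 3 mESC libraries (blue) and the 3 CPCC libraries (orange), with black lines for group means and open symbols at the level of 3 counts where a gene is missing from the mESC table; equal shapes do not pair libraries. The 2 groups stand apart for *Rarb*, from 0.290 to 1.91 against 33.0 to 64.6 CPM, and among the genes in both tables they overlap only for *Crabp1*.

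*Stra6* codes for the membrane receptor that takes retinol from its plasma carrier. It lies at chr9:58129088-58153998 on the plus strand (mm10, as the tables give it). It was listed only for CPCCs, with 17, 21 and 16 counts in S04, S05 and S06, or 1.49, 2.47 and 1.89 CPM. This was the lowest mean of the 9 genes in CPCCs per length of exon (below), and the 3 libraries were close to each other. The smallest sum over 3 libraries was 10 counts in each table, so a missing gene was set against a floor of 3 counts in each library of the other table. Against that floor *Stra6* was at least 4.36-fold higher in CPCCs, or at least 3.77-fold without S05. A bound of at least 4-fold was reached by 44.6% of the 2518 genes listed only for CPCCs. The bounds divide the mean CPCC level by that floor. They allow neither for counting error nor for the spread between libraries.

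*Crabp1* and *Crabp2* code for small cytosolic carriers of retinoic acid. CRABP2 is known to hand retinoic acid to the receptors in the nucleus, and CRABP1 to hold it in the cytosol. *Crabp2* (chr3:87948693-87953373, plus strand) drew 302, 249 and 214 counts from the CPCC libraries S04, S05 and S06, but only 3, 4 and 6 from S01, S02 and S03. The CPCC levels were 26.4, 29.3 and 25.3 CPM against mESC levels of 0.466, 0.589 and 0.869 CPM, with means of 27.0 ± 2.07 and 0.641 ± 0.207 CPM (SD, n = 3 each). The groups stood far apart, and the CPCC libraries were nearly alike. The log2 fold change was 5.42 (SE 0.35, edgeR adjusted p = 4.8e-06), and 1.5% of all genes tested had one as high or higher.

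*Crabp1* (chr9:54764748-54773111, plus strand) was instead well measured in both cell types, with 96, 134 and 135 counts in mESCs and 104, 328 and 168 counts in CPCCs. The CPCC levels were 9.09, 38.6 and 19.8 CPM against mESC levels of 14.9, 19.7 and 19.5 CPM. The CPCC libraries lay on both sides of the mESC libraries and spread 4.24-fold between S04 and S05. The log2 fold change was 0.35 (SE 0.43, edgeR adjusted p = 0.506). Its sign rested on S05: without that library it was -0.29 (adjusted p = 0.515), and without S04 it was 0.72 (adjusted p = 0.0568).

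In each library the ratio of *Crabp2* to *Crabp1* counts does not depend on scaling. On the log2 scale the CPCC libraries gave 1.54, -0.40 and 0.35, and the mESC libraries gave ratios from -5.07 to -4.49. The ratio was thus higher in every CPCC library, by 5.35 on the log2 scale, or 40.8-fold. The exact two-sided permutation test gave p = 0.10, the smallest value that 3 against 3 libraries allow, and 0.10 after adjustment over the 3 ratios compared. Per kilobase of exon, *Crabp2* made up 1.86%, 1.78% and 2.63% of the summed *Crabp1* and *Crabp2* level in mESCs. Its part was 63.8%, 31.5% and 43.6% in CPCCs. S04 was the only library in which *Crabp2* exceeded *Crabp1* on this scale.

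The RAR genes code for the receptors that bind retinoic acid itself. *Rarb*, known as the receptor gene that retinoic acid induces, lies at chr14:16430840-17082332 on the minus strand. It drew 377, 549 and 347 counts from S04, S05 and S06 but 4, 13 and 2 from S01, S02 and S03. The CPCC levels were thus 33.0, 64.6 and 41.0 CPM against mESC levels of 0.621, 1.91 and 0.290 CPM, with means of 46.2 ± 16.4 and 0.941 ± 0.858 CPM (SD, n = 3 each). S02 was the highest mESC library and S05 the highest CPCC library, and the groups were far apart. The log2 fold change was 5.64 (SE 0.52, edgeR adjusted p = 2.94e-05), reached by 1.24% of all genes tested. Without S02 it was 6.68, with 4 and 2 counts left in the other mESC libraries. A log2 fold change above 5 with an adjusted p under 0.05 was found for 247 genes (1.98%), *Rarb* and *Crabp2* among them.

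Part of the *Rarb* count may be shared with a neighbour. In the GENCODE M21 annotation 1793 bases of *Rarb* exon, 34.1% of the total, lie under exons of *Top2b* on the opposite strand, and the library kit does not mark strand. In the coordinates of the tables, *Top2b* ends at 16430788, before *Rarb* begins. *Top2b* had 286 to 452 counts in mESCs and 1354 to 2327 in CPCCs, and its log2 fold change was 1.88 (SE 0.22, edgeR adjusted p = 9.59e-05). How the counting treated such bases is not given in the sources used here, and the part of *Top2b* reads in the *Rarb* values was not tested.

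*Rara*, the broadly expressed receptor gene (chr11:98937696-98974943, plus strand), had 42, 48 and 50 counts in mESCs and 156, 164 and 138 counts in CPCCs. Scaled to depth, the CPCC libraries stood at 13.6, 19.3 and 16.3 CPM and the mESC libraries at 6.52, 7.07 and 7.24 CPM. Every CPCC library was higher than every mESC library, and the log2 fold change was 1.29 (SE 0.27, edgeR adjusted p = 0.00274). *Rarg* (chr15:102234938-102257523, minus strand), which is known from skin and cartilage, had 7, 17 and 12 counts in mESCs and 122, 73 and 92 counts in CPCCs. Scaled to depth, these were 10.7, 8.59 and 10.9 CPM for CPCCs against 1.09, 2.50 and 1.74 CPM for mESCs. The groups again did not overlap, and the log2 fold change was 2.55 (SE 0.43, edgeR adjusted p = 0.00086).

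Within the RAR genes the order turned over. The log2 ratio of *Rarb* to *Rara* counts was 1.27, 1.74 and 1.33 in S04, S05 and S06, where S01, S02 and S03 had -3.39, -1.88 and -4.64. This ratio was below 0 in each mESC library and above 0 in each CPCC library, a difference of 4.76, or 27.0-fold. The log2 ratio of *Rarg* to *Rara* was -2.58, -1.50 and -2.06 in mESCs and -0.35, -1.17 and -0.58 in CPCCs, a difference of 1.34. Both gave p = 0.10 by the exact permutation test, again the smallest value possible. The difference for *Rarb* to *Rara* ran from 4.09 without S03 to 5.47 without S02.

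Per kilobase of exon the summed level of the 3 RAR genes was 11.9, 18.7 and 14.1 CPM in CPCCs (S04, S05 and S06) against 1.87, 2.57 and 2.12 CPM for mESCs (S01, S02 and S03). *Rara* held 80.0%, 63.0% and 78.2% of that sum in mESCs but 26.3%, 23.6% and 26.5% in CPCCs. *Rarb* held 6.32%, 14.1% and 2.59% in mESCs and 52.7%, 65.6% and 55.3% in CPCCs. The leading RAR transcript per length was thus *Rara* in every mESC library and *Rarb* in every CPCC library. The share of *Rarg* overlapped between the groups, from 13.7% to 22.9% in mESCs and from 10.8% to 21.1% in CPCCs.

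**Figure D2:**
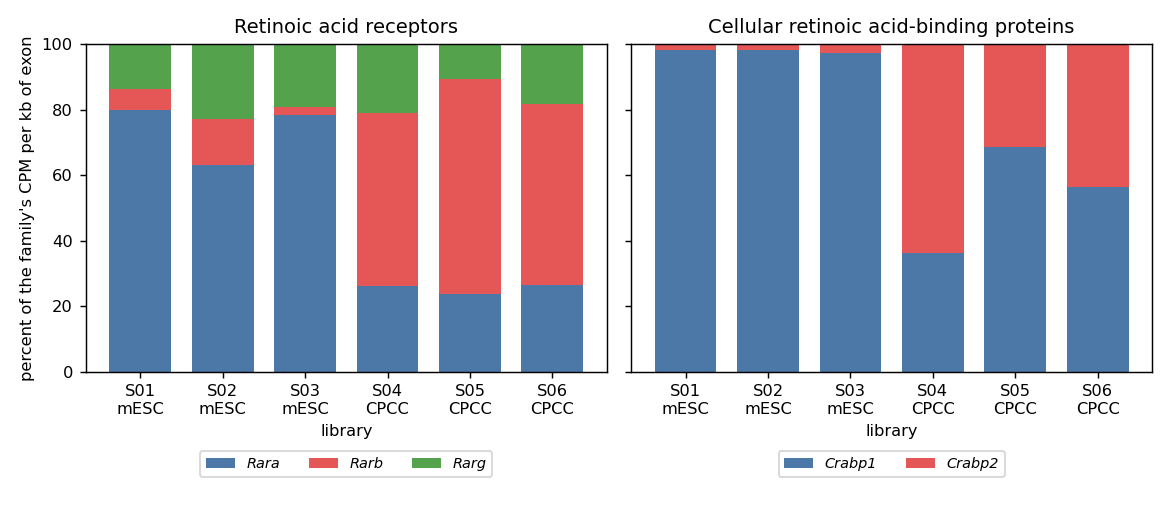
Share of each gene in the summed CPM per kilobase of exon of the RAR genes (left) and the CRABP genes (right), in percent, with 1 bar per library. *Rarb* (red, left) held 2.59% to 14.1% of the RAR sum in mESCs and 52.7% to 65.6% in CPCCs, and *Crabp2* (red, right) 1.78% to 2.63% and 31.5% to 63.8% of the CRABP sum.

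*Rxra* (chr2:27677201-27763320, plus strand) codes for a retinoid X receptor, the partner with which RAR and several other nuclear receptors bind DNA. It had 126, 115 and 108 counts in mESCs and 326, 336 and 244 counts in CPCCs, or 19.6, 16.9 and 15.6 CPM and 28.5, 39.5 and 28.8 CPM. The CPCC libraries were all above the mESC libraries, with means of 32.3 ± 6.27 and 17.4 ± 2.00 CPM (SD, n = 3 each). The log2 fold change was 0.95 (SE 0.23, edgeR adjusted p = 0.00585), the smallest of the 5 that passed. As many as 28.3% of all genes tested had a log2 fold change as high or higher. The 2 other RXR genes were named after their values were seen: *Rxrb* had a log2 fold change of -0.52 (SE 0.33, edgeR adjusted p = 0.192), and *Rxrg* was listed only for CPCCs, with 8, 2 and 13 counts.

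**Figure D3:**
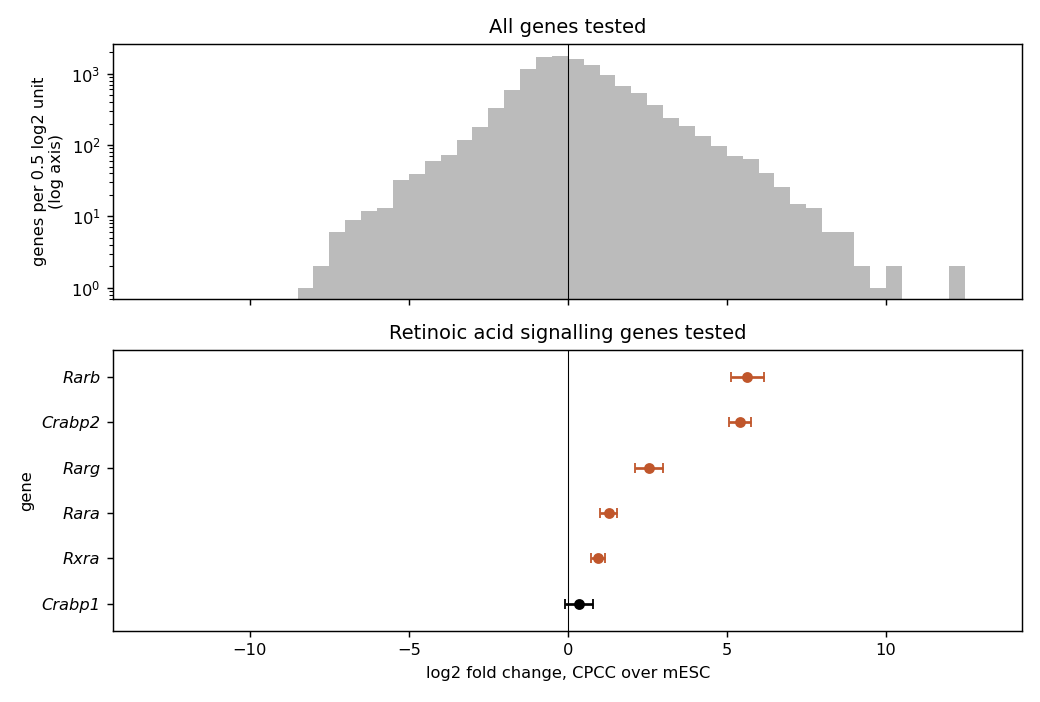
Log2 fold change of CPCCs over mESCs for all 12471 genes tested (top, number of genes per bin on a log axis) and for the 6 retinoid genes tested (bottom), where points are fitted values, bars are SE and black marks the gene that did not pass. *Rarb* at 5.64 and *Crabp2* at 5.42 lie in the upper tail of all genes, and *Crabp1* at 0.35 lies near 0.

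The CYP26 enzymes hydroxylate retinoic acid and so end its action. *Cyp26a1* (chr19:37697808-37701537, plus strand), whose promoter with its DR5 is printed above, was listed only for CPCCs. It had 26, 39 and 122 counts in S04, S05 and S06, or 2.27, 4.59 and 14.4 CPM. S06 stood well above the other two, and the mean was 7.09 ± 6.44 CPM (SD, n = 3). Against the floor of 3 counts per mESC library this was at least 15.9-fold higher, but at least 7.67-fold without S06. *Cyp26b1* (chr6:84571414-84593909, minus strand) was likewise listed only for CPCCs, with 141, 55 and 59 counts, or 12.3, 6.47 and 6.97 CPM. Here S04 was the highest library, and the mean of 8.59 ± 3.25 CPM (SD, n = 3) was at least 19.2-fold above the floor, or at least 15.0-fold without S04. A bound of at least 10-fold was reached by 26.3% of the genes listed only for CPCCs.

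The 2 hydroxylase genes did not rank the libraries alike. *Cyp26b1* counts were 5.42 times those of *Cyp26a1* in S04, 1.41 times in S05 and 0.484 times in S06. Per kilobase of exon *Cyp26a1* held 33.2%, 65.7% and 84.8% of their sum in S04, S05 and S06. The library with the lowest *Cyp26a1* level thus had the highest *Cyp26b1* level. *Cyp26c1*, the remaining gene of the family, was in neither table.

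Levels of different genes are comparable only per length, so CPM was divided by the kilobases of annotated exon. In mESCs *Crabp1* was highest, at 22.5 ± 3.41 CPM per kilobase (SD, n = 3), followed by *Rxra* at 3.18 ± 0.366 and *Rara* at 1.59 ± 0.086, with no overlap between these 3. *Crabp2* at 0.485 ± 0.156, *Rarg* at 0.417 ± 0.166 and *Rarb* at 0.179 ± 0.163 CPM per kilobase came last, and in this low group each gene overlapped the next in range. In CPCCs *Crabp1* at 28.1 ± 18.6 and *Crabp2* at 20.4 ± 1.57 CPM per kilobase were highest and overlapped. *Rarb* at 8.77 ± 3.12 and *Rxra* at 5.91 ± 1.15 also overlapped, and both lay below *Crabp2* in every library. Next came *Rara* at 3.76 ± 0.647, *Cyp26a1* at 3.57 ± 3.25, *Rarg* at 2.36 ± 0.296 and *Cyp26b1* at 1.60 ± 0.607 CPM per kilobase, each overlapping its neighbour. *Stra6* was lowest at 0.334 ± 0.0848 CPM per kilobase and was separate from the rest. With the longest transcript in place of all exons, *Crabp2* at 29.0 moved above *Crabp1*, and the other order was kept.

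Among the CPCC libraries, S05 held the highest level of 6 of the 9 genes (*Rara*, *Rarb*, *Rxra*, *Crabp1*, *Crabp2* and *Stra6*), with or without TMM scaling. S04 held the lowest level of 6 genes without TMM and of 5 with it. *Cyp26b1* ran against this, being highest in S04 and lowest in S05 on both scales. *Rarg* was also lowest in S05 on both scales, and was highest in S06 without TMM and in S04 with it. S04 was also the library with the highest cardiac progenitor and epicardial marker sums, and the part of cell mixture in these differences was not tested.

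The rest of the pathway was read from 7 lists with 79 other genes, of which 49 were tested, 22 were higher in CPCCs, 11 lower and 16 did not pass. A further 13 were listed only for CPCCs, 1 only for mESCs, 4 were below the filter and neither table held the other 12. Over all genes tested 61.4% were called, 31.7% higher and 29.7% lower, so the called share of the 49 was near that of all genes. Their median log2 fold change was 0.74, against 0.03 over all genes tested.

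Of 9 genes of retinol uptake, storage and release, 3 were tested and 1 was higher, none lower. Of 17 genes of retinol and retinal oxidation and reduction, 10 were tested, 3 were higher and 2 lower, no larger a share in either direction than the 31.7% and 29.7% over all genes tested. *Rdh10*, the main embryonic retinol dehydrogenase, had 39, 27 and 34 counts in mESCs and 590, 384 and 389 counts in CPCCs, with a log2 fold change of 3.32 (SE 0.26, edgeR adjusted p = 1.13e-05). *Dhrs3*, a retinal reductase that works in the opposite direction, rose by 1.18 on the log2 scale and *Rdh14* by 1.66, while *Adh5* fell by 1.45.

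The retinaldehyde dehydrogenases carry out the final step to retinoic acid. *Aldh1a1* was listed only for CPCCs with 155, 24 and 14 counts, and S04 held most of them. It was at least 13.4-fold above the floor with S04 and at least 5.0-fold without it. *Aldh1a2*, the main embryonic enzyme of this step, was named after its values were seen. It had 40, 46 and 58 counts in mESCs and 182, 90 and 67 in CPCCs, and its log2 fold change of 0.78 (SE 0.38) did not pass (edgeR adjusted p = 0.103). Of the 2 genes on the list of breakdown and other carriers, *Fabp5*, a fatty acid-binding protein that also binds retinoic acid, was higher by 0.99 on the log2 scale (SE 0.16, edgeR adjusted p = 0.000747), and the other was *Cyp26c1*.

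Of 20 genes known to respond to retinoic acid in other systems, 13 were tested, 7 were higher in CPCCs, 2 were lower and 4 did not pass, and 5 more were listed only for CPCCs. The median log2 fold change of the 13 was 1.77, against 0.03 over all genes tested. Of all genes tested, 61.4% were called, 31.7% higher and 29.7% lower. The share of the 13 called in either direction was near that of all genes. *Meis1*, a homeobox gene of the TALE class, had 3, 7 and 17 counts in mESCs and 535, 542 and 604 in CPCCs, with a log2 fold change of 5.53 (SE 0.44, edgeR adjusted p = 1.26e-05), or 6.35 without S03. The pioneer factor gene *Foxa1* rose by 3.72 (SE 0.91, edgeR adjusted p = 0.00656) on the same scale, but by 2.65 without S05 and by 4.41 without S03. *Cdx1*, a caudal homeobox gene, went the other way: it had 300, 354 and 318 counts in mESCs and 3, 22 and 7 in CPCCs, a log2 fold change of -5.30 (SE 0.55, edgeR adjusted p = 5.34e-05), or -6.45 without S05. The other lower gene, named after its values were seen, was *Stra8*, a gene of meiotic entry, at -2.02 (edgeR adjusted p = 0.0154).

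Of the responder genes, 4 that were listed only for CPCCs reached a bound of at least 4-fold, which 44.6% of such genes did. *Pax6*, a neural and eye regulator, had 46, 117 and 159 counts and was at least 27.3-fold above the floor. The hindbrain genes *Hoxb1*, with 26, 41 and 60 counts, and *Hoxb2*, with 37, 34 and 30 counts, were at least 10.6-fold and 8.03-fold above it. *Hoxb5* had 45, 8 and 13 counts, at least 4.78-fold above the floor and at least 2.77-fold without S04. *Pax6* is also on the neural marker list, whose sum moved with it as given above. The responder list holds genes that other signals also control, so its counts do not measure retinoic acid.

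**Figure D4:**
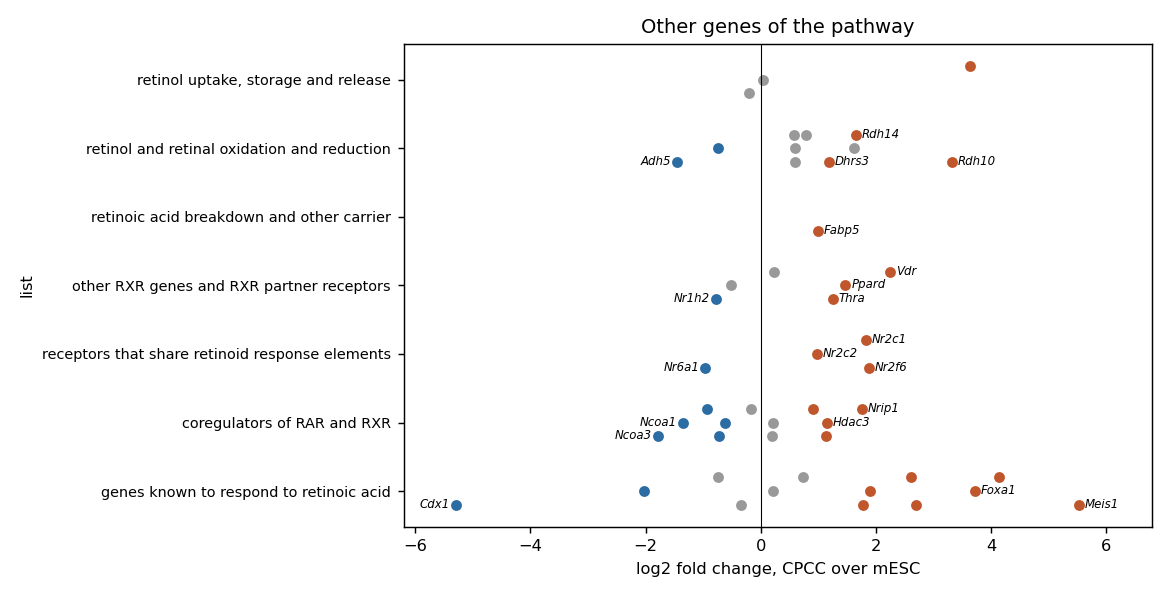
Log2 fold change of CPCCs over mESCs for the 49 other pathway genes tested, by list, with 1 point per gene in orange (higher, adjusted p under 0.05), blue (lower) or grey (not passed); height within a row only separates points. *Meis1* at 5.53 and *Cdx1* at -5.30 are the extremes, and *Rdh10* at 3.32 lies apart from the other genes of its list.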

How the data were processed

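Total RNA of 3 mESC and 3 CPCC samples was turned into polyA+ cDNA with the SMART-Seq v4 kit, and Nextera XT libraries, which do not mark strand, were sequenced as paired ends. The authors deposited estimated counts of reads per gene, 1 table for each cell type, without normalization and with both alleles summed. The submitters' processing notes name STAR 2.7 and the build mm10, and the counting tool and its strand setting are not given in the sources used here. The column names carry no replicate numbers, so libraries are called S01 to S06, as in the tables.

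The counts were rounded to whole numbers for the tests. CPM used each library's total. Genes in both tables that passed filterByExpr were fitted with edgeR 4.0.16 in R 4.3.3 (TMM, quasi-likelihood test), with Benjamini-Hochberg adjustment over 12471 genes and a threshold of 0.05. Genes in 1 table received a bound of mean CPM against 3 counts per library. Exon lengths came from GENCODE M21. Alternatives were DESeq2 1.42.0, other normalizations and filters, missing genes at 0 or 3 counts, and each library left out. The scripts were tested on simulated data.

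The 9 genes and the lists were chosen with earlier results of these data known. Other genes were named by rule: from each list at most 4 that passed with groups that did not overlap, by size of log2 fold change, and at most 4 listed in 1 table with a bound of at least 4-fold, by size. Exceptions are stated, and 2 genes that the rule names are not reported here.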

Additional observations from a re-analysis of the deposited data

How the results depend on the processing

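The calls of *Rara*, *Rarb*, *Rarg*, *Rxra* and *Crabp2* kept their direction and side of the threshold in every one of the 12 or 13 alternatives that tested them, with log2 fold changes of 1.17 to 1.37, 5.21 to 6.68, 2.30 to 2.88, 0.80 to 1.08 and 5.24 to 5.70. Requiring at least 10 counts in every library left 3 of the 9 genes testable and 2 of them higher, because *Rarb*, *Rarg* and *Crabp2* fall under that minimum in mESCs. With genes missing from a table set to 0 counts, or to 3 counts, 8 genes were higher, the 3 added being *Cyp26a1*, *Cyp26b1* and *Stra6*. *Crabp1* reversed to -0.29 without S05, at an adjusted p of 0.515 by edgeR, and ran up to 0.72 without S04. *Vdr* fell short without S05 (log2 fold change 1.59, adjusted p = 0.0781). The number of retinoid and other pathway genes called was 38, and 28 to 48 under the alternatives. Over all genes, 7656 were called, 7896 by DESeq2 and 6536 to 7895 with 1 library left out. No paired analysis was possible because the columns carry no replicate numbers. Depth limits the mESC values most: *Rarb* and *Crabp2* rest on 2 to 13 and 3 to 6 counts there.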

Other observations

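Other nuclear receptors bind with RXR or on the same repeats. Of 13 other RXR genes and RXR partners, 6 were tested, 3 were higher in CPCCs, 1 was lower and 2 did not pass, a called share near the 61.4% over all genes tested. The vitamin D receptor gene *Vdr* was higher by 2.25 on the log2 scale (SE 0.64, edgeR adjusted p = 0.0128), *Ppard* by 1.47 (SE 0.24, edgeR adjusted p = 0.000678) and the thyroid hormone receptor gene *Thra* by 1.25 (SE 0.30, edgeR adjusted p = 0.00597). The liver X receptor gene *Nr1h2* fell by 0.78 (SE 0.21, edgeR adjusted p = 0.00932). *Vdr* did not pass without S05. Of 6 receptor genes known to share retinoid response elements, 4 were tested, 3 were higher and 1 lower. The shares over all genes tested were 31.7% higher and 29.7% lower. *Nr2f1* and *Nr2f2*, the COUP-TF genes, were listed only for CPCCs, with 370, 597 and 495 counts and 394, 511 and 308 counts in S04, S05 and S06. They were at least 120-fold and at least 97.6-fold above a floor of 3 counts per mESC library. *Nr2f6*, *Nr2c1* and *Nr2c2* rose by 1.88, 1.82 and 0.98 on the log2 scale, and *Nr6a1*, the germ cell nuclear factor gene, fell by 0.96.

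All 12 coregulators of RAR and RXR were tested, 4 were higher in CPCCs, 5 were lower and 3 did not pass, and their median log2 fold change was 0.02. Over all genes tested, 31.7% were higher and 29.7% lower. Among coactivator genes *Ncoa3* fell by 1.79 (SE 0.18, edgeR adjusted p = 4.62e-05) and *Ncoa1* by 1.35 (SE 0.21, edgeR adjusted p = 0.000485) on the log2 scale. *Nrip1*, a corepressor gene that retinoic acid is known to induce, rose by 1.76 (SE 0.24, edgeR adjusted p = 0.000258), and *Hdac3*, the deacetylase of the NCOR complex, by 1.15 (SE 0.25, edgeR adjusted p = 0.00383).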
